A study of Mus musculus with 9 samples.

Results

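The proteasome genes were taken as all genes with a probe set of their own whose only symbol began with Psma, Psmb, Psmc, Psmd or Psme followed by a number, each represented by its brightest probe set. They were 38 of the 14860 named genes on the arrays, with 1 such probe set each. No measured difference was used to choose them. Of the 38, 36 encoded subunits of the proteasome, its activator caps or its assembly chaperones. The other two matched by symbol alone: Psmc3ip encodes a meiotic recombination factor, and Psme3ip1 a protein that binds the activator encoded by Psme3. RefSeq lists 46 protein-coding mouse genes with such symbols. Of the 8 without a probe set of their own, Psma4, Psmd1, Psme2 and Psme2b were listed on 4 probe sets shared with other symbols, and Psma5, Psma8, Psmb3 and Psmb5 were not analysed here.

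RNA from perigonadal white adipose tissue, the fat pad around the gonads, of 4-month-old mice was hybridised to 9 Affymetrix exon arrays, 3 for each of 3 genotypes. The controls were wt. The G609G/G609G mice were homozygous for the Lmna G609G allele, which directs the gene for lamins A and C to make progerin, a truncated lamin A that causes premature ageing. The LCS/LCS mice were homozygous for an allele known to give lamin C without lamin A or progerin. The labels give no treatment, sex or strain, and both alleles act wherever Lmna is expressed, so these are changes of a whole animal seen in 1 tissue. Whether each array held RNA of a single animal is not stated, so the p-values rest on array-to-array spread alone.

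The proteasome degrades proteins tagged with ubiquitin. Its barrel-shaped core consists of rings of alpha subunits, which gate the entrance, and of beta subunits, of which Psmb5, Psmb6 and Psmb7 cut peptide bonds in most cells. Interferon induces Psmb8, Psmb9 and Psmb10, which replace those 3 in the immunoproteasome and favour peptides that bind MHC class I. A regulatory particle of ATPases (Psmc genes) and other subunits (Psmd genes) binds ubiquitin chains, unfolds the substrate and feeds it into the core. The transcription factor Nfe2l1 raises proteasome genes together when proteolysis falls short, and in brown fat it sustains proteasome activity in the cold.

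Signals are log2 values as deposited, so a difference of 1 is a doubling of signal. Array medians ran from 6.36 to 6.45 in wt, from 5.94 to 6.01 in G609G/G609G and from 6.31 to 6.37 in LCS/LCS. Each comparison is therefore given as deposited, after quantile normalization, which gives all arrays one distribution, and after centring each array on its median. Over all 14860 genes the median difference of G609G/G609G from wt was -0.28 on the deposited scale, 0.02 on the quantile-normalized scale and 0.14 on the centred scale. A gene was called changed at an adjusted p of 0.05 or less from limma, adjusted over all 23332 probe sets. The tissue markers bear on the reading of every result. The 10 white adipocyte markers measured summed to 15.67 to 15.68 in wt, 15.00 to 15.04 in G609G/G609G and 15.84 to 15.86 in LCS/LCS (log2 of the summed signal). The 11 skeletal muscle markers summed to 9.83 to 9.97, 15.31 to 15.36 and 11.06 to 11.10 in the same order. All 11 were higher in G609G/G609G under all 3 scalings, against 10.2% of all genes. In LCS/LCS 3 (27.3%) were higher under all 3, against 12% of all genes. The LCS/LCS sum follows Acta1, at 9.15, 9.29 and 9.42 in wt and 10.81, 10.78 and 10.81 in LCS/LCS. Of the 11 markers, 10 lay under the array median in both wt and LCS/LCS. The 8 epididymis markers summed to 15.68 to 15.71 in wt and 15.80 to 15.83 in LCS/LCS but 12.48 to 12.57 in G609G/G609G. The 13 testis markers summed to 12.83 to 12.99 in wt, 11.50 to 11.55 in G609G/G609G and 9.93 to 10.07 in LCS/LCS. Sums follow the brightest genes, and 5 of the 8 epididymis markers lay under the array median in G609G/G609G. All 8, and 11 of the 13 testis markers (84.6%), fell there under all 3 scalings, against 25.5% of all genes. The part of these other tissues in the proteasome results was not tested.

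The signals of most proteasome genes were high on these arrays. The median of the 38 genes lay between the 84.0th and 88.8th percentile of the genes on each array, and 35 of the 38 were above the array median on all 9 arrays. The exceptions were Psma3 (3.42 to 3.74), Psmb11, the catalytic subunit of cortical thymic epithelium (3.95 to 4.59), and Psmc3ip (4.83 to 5.23). Psma3 is a constitutive alpha subunit, and its low signal set it apart from Psma1, Psma2, Psma6 and Psma7, none of which was below 9.17 on any array. Signals of different probe sets also depend on their probes, so these positions are a description of the signals and not of the RNA amounts.

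**Figure D1:**
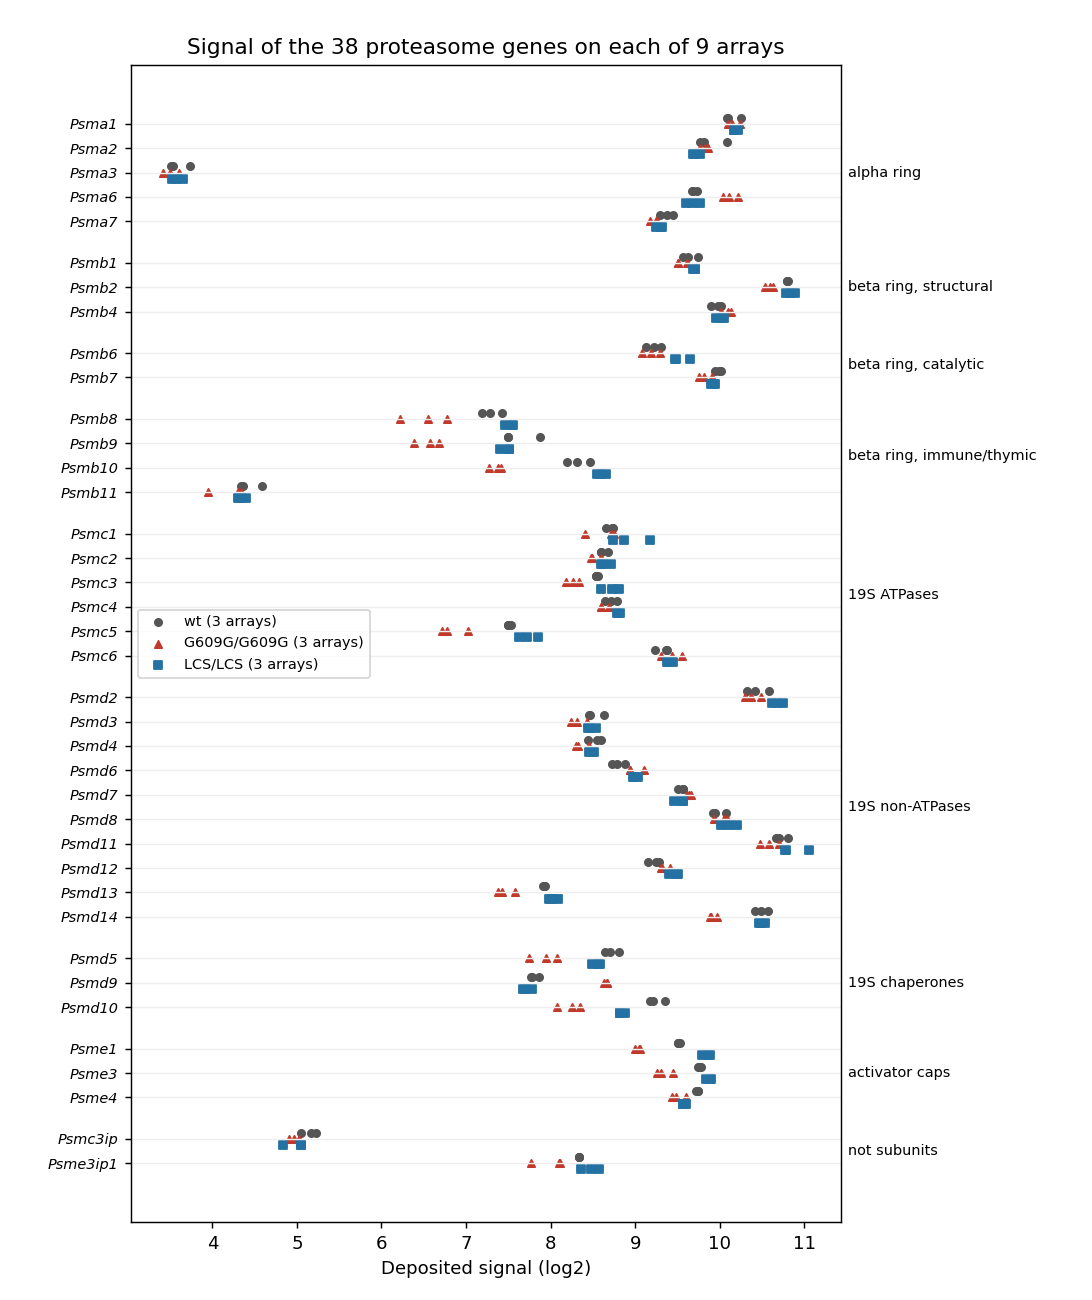
Signal of the 38 proteasome genes on each of the 9 arrays, as deposited; the x axis is log2 signal, each row is a gene, and each point is 1 array coloured by genotype. Psma3, Psmb11 and Psmc3ip lie at 5.23 or below, while Psmb8, Psmb9, Psmb10, Psmd5 and Psmd10 show G609G/G609G points to the left of all wt points and Psmd9 and Psma6 to the right.

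The promoters of 4 genes are printed here because 2 of them, Psmb8 and Psmb9, fell in the G609G/G609G arrays as deposited and the others, Psmd9 and Psma6, rose under every scaling. Each is the 250 bases before the start of transcription in RefSeq (GRCm38.p6), 5′ to 3′ on the gene's own strand. Psma6 has 2 entries. Capitals mark matches on either strand to CCAAT (bound by NF-Y), CCGGAAG (ETS factors), TGACNNNGC (the antioxidant response element core, bound by Nfe2l1 and Nfe2l2), the interferon-stimulated response element core (bound by interferon regulatory factors) or TTCNNNGAA (bound by STAT factors).
Psmb9 (chr17:34187331-34187580, minus strand): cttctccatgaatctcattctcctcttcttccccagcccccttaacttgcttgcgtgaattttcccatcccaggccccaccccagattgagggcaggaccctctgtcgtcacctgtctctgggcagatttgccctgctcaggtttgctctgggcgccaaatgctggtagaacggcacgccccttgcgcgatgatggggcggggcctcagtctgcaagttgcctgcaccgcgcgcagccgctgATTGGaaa
Psmb8 (chr17:34197945-34198194, plus strand): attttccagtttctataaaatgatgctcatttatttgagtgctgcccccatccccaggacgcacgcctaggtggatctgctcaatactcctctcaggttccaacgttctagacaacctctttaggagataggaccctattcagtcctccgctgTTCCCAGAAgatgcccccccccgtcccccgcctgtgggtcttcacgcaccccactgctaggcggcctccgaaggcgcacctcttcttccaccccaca
Psmd9 (chr5:123227940-123228189, plus strand): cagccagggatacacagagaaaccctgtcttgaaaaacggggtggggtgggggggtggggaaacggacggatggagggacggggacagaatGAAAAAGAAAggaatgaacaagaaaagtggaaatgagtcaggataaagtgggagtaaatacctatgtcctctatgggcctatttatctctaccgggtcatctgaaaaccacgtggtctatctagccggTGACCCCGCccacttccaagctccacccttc
Psma6, first entry (chr12:55383972-55384221, plus strand): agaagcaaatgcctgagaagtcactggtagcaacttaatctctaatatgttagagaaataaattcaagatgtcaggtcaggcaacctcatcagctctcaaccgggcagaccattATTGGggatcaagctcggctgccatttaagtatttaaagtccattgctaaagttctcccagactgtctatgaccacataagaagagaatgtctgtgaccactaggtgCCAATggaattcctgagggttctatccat
Psma6, second entry (chr12:55398575-55398824, plus strand): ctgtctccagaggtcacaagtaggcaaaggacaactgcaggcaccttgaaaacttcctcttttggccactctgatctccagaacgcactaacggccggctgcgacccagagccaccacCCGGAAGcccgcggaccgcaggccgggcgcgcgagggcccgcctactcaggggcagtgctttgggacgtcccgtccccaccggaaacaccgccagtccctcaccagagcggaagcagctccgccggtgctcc
The Psmb9 stretch holds 1 CCAAT match, just before the start. The Psmb8 stretch holds 1 TTCNNNGAA match. The Psmd9 stretch holds both an antioxidant response element core, close to the start, and an interferon-stimulated response element core farther upstream. The Psma6 stretches hold 2 CCAAT matches in the first and 1 CCGGAAG match in the second.

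Of the 38 genes, 32 had a promoter in the table, with 35 entries, among 32851 entries of 27025 genes. The CCGGAAG core was present in 13 of the 35, or 37.1%, and in 6.91% of all promoters. CCAAT was present in 15 of 35, or 42.9%, against 33.8% of all. The antioxidant response element core was present in 4 of 35, or 11.4%, against 10.2% of all. The interferon-stimulated response element core was present in 2 of 35 (5.71% against 2.98%) and TTCNNNGAA in 1 of 35 (2.86% against 7.02%). These 5 are among 10 motifs searched. They describe letters in this window and say nothing of binding.

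The comparison of G609G/G609G with wt asks how the fat of the progeria mice differed. The immunoproteasome genes Psmb9 and Psmb10 were lower, as were the assembly chaperones Psmd10 and Psmd5, while the chaperone Psmd9 and the alpha subunit Psma6 were higher. As deposited, 15 of the 38 genes (39.5%) fell and 3 (7.89%) rose, while 53.5% of all genes fell and 10.5% rose. The sign of many differences turned with the scaling: 29 of the 38 were negative as deposited, 11 after quantile normalization and 9 after centring. After quantile normalization 5 of 38 (13.2%) fell and 23 (60.5%) rose, against 29.5% and 28.5% of all genes, and after centring 7 fell and 25 rose, against 27.6% and 43.9%. On the same 3 scales the median difference of the 38 was -0.15, 0.24 and 0.27, above that of all genes under each. Under all 3 scalings, Psmb9, Psmd10, Psmb10, Psmd5 and Psmd14 fell and Psmd9, Psma6 and Psmd6 rose. These shares of 5 in 38 (13.2%) and 3 in 38 (7.89%) stand against 25.5% and 10.2% of all genes. In bulk tissue, fewer cells of a type and less RNA per cell cannot be told apart.

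**Figure D2:**
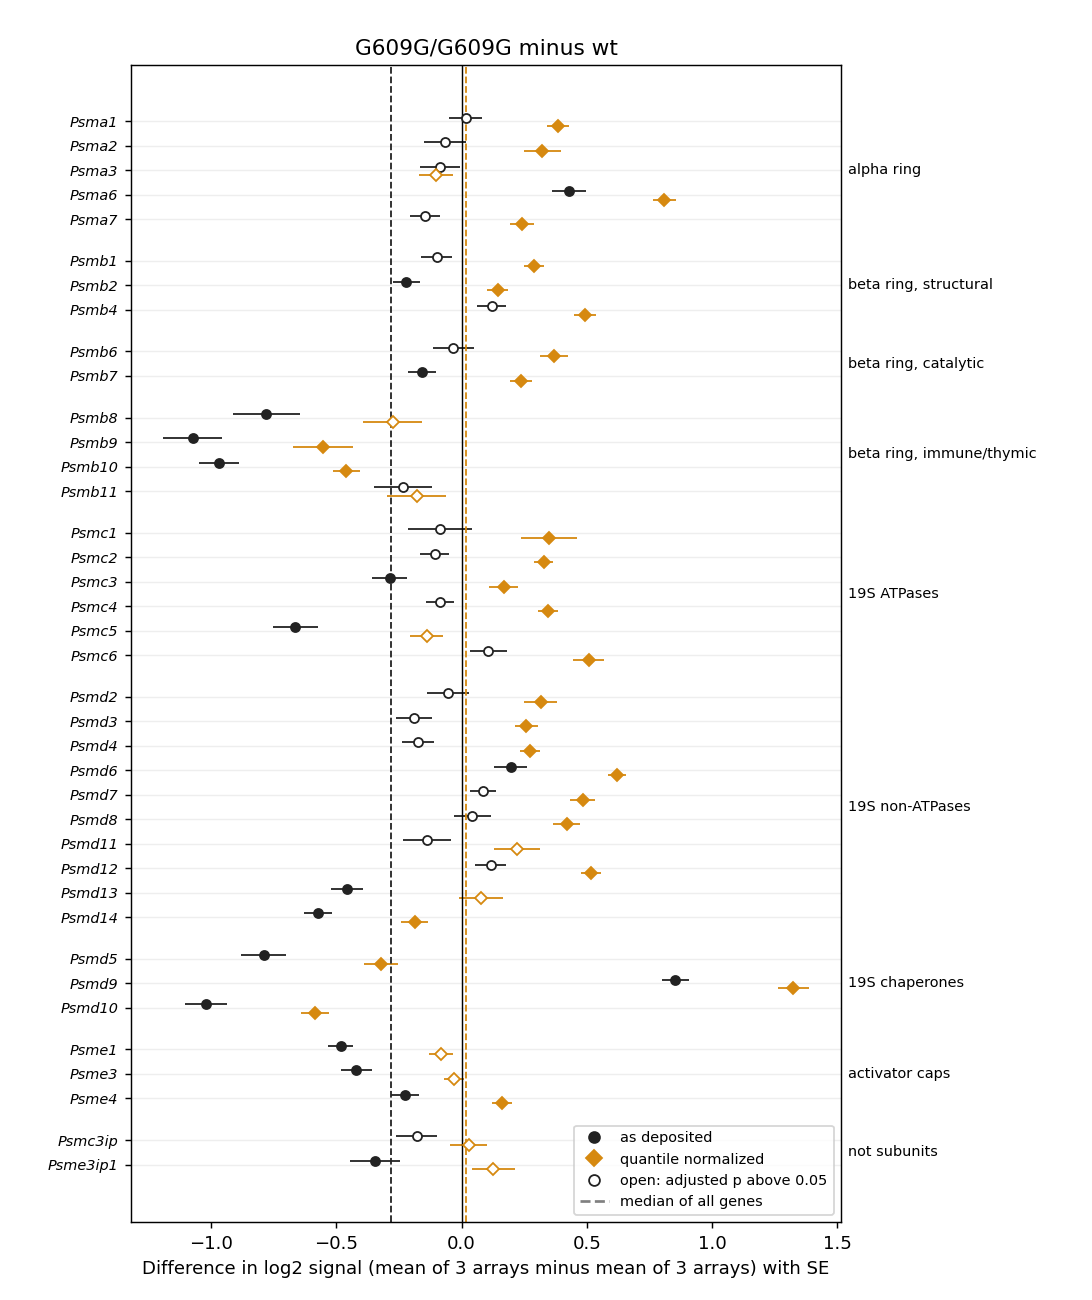
Difference of G609G/G609G from wt for each of the 38 genes, with the as-deposited and quantile-normalized values on each row; the x axis is the log2 difference, bars are standard errors, open symbols have an adjusted p above 0.05, and dashed lines mark the median of all genes. The quantile-normalized values lie to the right for every gene except Psma3, whose value moves from -0.09 to -0.10, and Psmb9, Psmd10, Psmb10, Psmd5 and Psmd14 stay below 0 and called on both scales.

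As deposited, Psmb8, Psmb9 and Psmb10 were lower in every G609G/G609G array than in any wt array, as were 56.4% of all genes. Psmb9 had 7.49, 7.50 and 7.87 in wt, 6.68, 6.57 and 6.39 in G609G/G609G and 7.51, 7.51 and 7.40 in LCS/LCS. The G609G/G609G arrays lay below all the others, while wt and LCS/LCS overlapped. The mean was 6.55 ± 0.15 in G609G/G609G and 7.62 ± 0.22 in wt (SD, n = 3 each), a difference of -1.07 with a standard error of 0.12 and a limma adjusted p of 9.77e-05, and it was -0.55 after quantile normalization (adjusted p = 0.00611). Psmb10 had 8.31, 8.19 and 8.47 in wt, 7.27, 7.38 and 7.41 in G609G/G609G and 8.65, 8.55 and 8.60 in LCS/LCS, so that no genotype overlapped another. Its difference from wt in G609G/G609G was -0.97 (SE 0.08, adjusted p = 1.87e-05), and -0.46 after quantile normalization. Psmb8 had 7.28, 7.19 and 7.42 in wt, 6.22, 6.55 and 6.78 in G609G/G609G and 7.46, 7.55 and 7.54 in LCS/LCS. Again the 3 progeria arrays were below all others, with a wider spread among themselves. The difference of Psmb8 was -0.78 (SE 0.13, adjusted p = 0.00126). After quantile normalization it was -0.28 and missed the threshold (adjusted p = 0.0926), and the G609G/G609G and wt arrays overlapped. Psmb11, the thymic catalytic subunit, was dim, and its difference of -0.23 did not pass (adjusted p = 0.123).

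The measured constitutive catalytic subunits were Psmb6 and Psmb7. Psmb6 had 9.13, 9.22 and 9.31 in wt, 9.08, 9.19 and 9.29 in G609G/G609G and 9.65, 9.47 and 9.48 in LCS/LCS. wt and G609G/G609G overlapped fully, with a difference of -0.03 (adjusted p = 0.762), which became 0.37 after quantile normalization (adjusted p = 0.00105). Psmb7 had 9.99, 9.94 and 10.01 in wt, 9.75, 9.81 and 9.91 in G609G/G609G and 9.90, 9.94 and 9.92 in LCS/LCS. Its difference from wt in G609G/G609G was -0.16 (adjusted p = 0.0455) and turned to 0.24 after quantile normalization. That fall of Psmb7 remained called in 1 of 9 fits with 1 array left out, the one without G609G/G609G replicate 3; in the others the adjusted p ran from 0.0639 to 0.126. A shift of a whole array by one amount cancels in the difference between 2 genes on it, but a change in the spread of its signals does not. Psmb9 minus Psmb6 was -1.64, -1.72 and -1.44 in wt, -2.40, -2.62 and -2.90 in G609G/G609G and -2.14, -1.96 and -2.08 in LCS/LCS. Both mutants lay below wt, with mean shifts of -1.04 and -0.46 as deposited and -0.92 and -0.40 after quantile normalization. As deposited, Psmb9 and Psmb6 themselves differed from wt by -1.07 and -0.03 in G609G/G609G. In LCS/LCS they differed by -0.15, which did not pass, and 0.31. Psmb10 minus Psmb7 was -1.68, -1.75 and -1.54 in wt, -2.48, -2.43 and -2.50 in G609G/G609G and -1.25, -1.39 and -1.32 in LCS/LCS. Here the mutants lay on opposite sides of wt, with mean shifts of -0.81 and 0.34 as deposited and -0.70 and 0.38 after quantile normalization. These within-array values were not tested.

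The structural beta and alpha subunits gave few calls as deposited, where 53.5% of all genes fell and 10.5% rose. Of 3 structural beta subunits, Psmb2 fell by 0.22 (adjusted p = 0.00746), while Psmb1 and Psmb4 differed by -0.10 and 0.12 and did not pass. After quantile normalization all 3 rose, by 0.14 to 0.49, against 28.5% of all genes. Among 5 alpha subunits, Psma6 rose. It had 9.68, 9.67 and 9.73 in wt, 10.11, 10.04 and 10.22 in G609G/G609G and 9.77, 9.60 and 9.67 in LCS/LCS. The progeria arrays lay above all others, and wt and LCS/LCS overlapped. The difference was 0.43 (SE 0.07, adjusted p = 0.000793), and 0.81 after quantile normalization. Psma1, Psma2, Psma3 and Psma7 differed by -0.15 to 0.02 as deposited, and none passed. After quantile normalization Psma1, Psma2 and Psma7 rose by 0.24 to 0.39, and Psma3 did not pass. With Psma6, 4 of the 5 (80%) then rose, against 28.5% of all genes.

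Of the 6 ATPases of the regulatory particle, Psmc5 and Psmc3 (33.3%) fell as deposited, against 53.5% of all genes. Psmc5 had 7.49, 7.49 and 7.53 in wt, 6.72, 6.78 and 7.02 in G609G/G609G and 7.85, 7.72 and 7.63 in LCS/LCS. The 3 genotypes did not overlap. Its fall from wt was -0.66 as deposited (SE 0.09, adjusted p = 0.000345) and -0.14 after quantile normalization, which did not pass (adjusted p = 0.117). Psmc3 fell by 0.29 as deposited and rose by 0.17 after quantile normalization (adjusted p = 0.046). Psmc4 had 8.71, 8.64 and 8.79 in wt, 8.60, 8.59 and 8.69 in G609G/G609G and 8.80, 8.79 and 8.82 in LCS/LCS. Its wt and G609G/G609G arrays overlapped, and the difference of -0.09 did not pass (adjusted p = 0.24). Psmc1, Psmc2 and Psmc6 did not pass either. After quantile normalization all of the 6 ATPases except Psmc5 rose (83.3%), against 28.5% of all genes.

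Of the 10 subunits of the regulatory particle that are not ATPases, Psmd14 and Psmd13 (20%) fell and Psmd6 (10%) rose as deposited. Of all genes 53.5% fell and 10.5% rose. Psmd14 is the metalloprotease that cuts ubiquitin off substrates. It had 10.42, 10.57 and 10.49 in wt, 9.89, 9.90 and 9.97 in G609G/G609G and 10.49, 10.46 and 10.53 in LCS/LCS. Its signal was lower in all progeria arrays, by 0.57 (SE 0.06, adjusted p = 5.49e-05) and by 0.19 after quantile normalization (adjusted p = 0.0209). Psmd6 had 8.78, 8.73 and 8.88 in wt, 8.94, 8.94 and 9.10 in G609G/G609G and 9.03, 8.97 and 8.98 in LCS/LCS. Both mutants were above wt on every array. Its difference in G609G/G609G was 0.20 (adjusted p = 0.0353) and 0.62 after quantile normalization. The call of Psmd6 as deposited was kept in 3 of 9 fits with 1 array left out; it was lost without wt replicate 1 or 2, G609G/G609G replicate 3 or any LCS/LCS array, at adjusted p of 0.052 to 0.115. Psmd13 fell by 0.46 as deposited and differed by 0.08 after quantile normalization (adjusted p = 0.503).

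The ubiquitin receptor Psmd4 had 8.55, 8.44 and 8.60 in wt, 8.30, 8.32 and 8.45 in G609G/G609G and 8.51, 8.45 and 8.49 in LCS/LCS. Its difference of -0.17 in G609G/G609G did not pass (adjusted p = 0.052). The scaffold subunit Psmd11, whose level raises proteasome assembly in human embryonic stem cells, had 10.66, 10.70 and 10.81 in wt, 10.47, 10.58 and 10.70 in G609G/G609G and 10.78, 11.05 and 10.77 in LCS/LCS. The wt arrays overlapped both mutants, and the difference of -0.14 did not pass (adjusted p = 0.257). Psmd2, Psmd3, Psmd7, Psmd8 and Psmd12 differed by -0.19 to 0.12 as deposited, and none passed. Of the 10 subunits that are not ATPases, 1 (10%) fell and 7 (70%) rose after quantile normalization, against 29.5% and 28.5% of all genes.

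The 3 chaperones that assemble the base of the regulatory particle all passed the test, 2 lower and 1 higher. Of all genes 53.5% fell and 10.5% rose as deposited. Psmd9 had 7.78, 7.77 and 7.86 in wt, 8.63, 8.67 and 8.67 in G609G/G609G and 7.67, 7.78 and 7.70 in LCS/LCS. The progeria arrays stood clear of both other genotypes, which overlapped. The difference was 0.85 (SE 0.05, adjusted p = 3.92e-06), a 1.81-fold higher signal, and 1.33 after quantile normalization. Psmd10, also known as gankyrin, had 9.17, 9.21 and 9.35 in wt, 8.07, 8.25 and 8.35 in G609G/G609G and 8.82, 8.82 and 8.88 in LCS/LCS. The 3 genotypes did not overlap, with LCS/LCS between the others. Its fall in G609G/G609G was -1.02 (SE 0.08, adjusted p = 1.7e-05), and -0.59 after quantile normalization. Psmd5 had 8.70, 8.64 and 8.81 in wt, 7.95, 7.75 and 8.08 in G609G/G609G and 8.56, 8.58 and 8.49 in LCS/LCS. Its fall was -0.79 (SE 0.09, adjusted p = 0.000118), and -0.32 after quantile normalization (adjusted p = 0.00507).

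The 3 activator caps fell as deposited, as did 53.5% of all genes. None of them fell after quantile normalization, when 29.5% of all genes did. Psme1 encodes a subunit of the interferon-inducible cap and had 9.51, 9.51 and 9.53 in wt, 9.06, 9.0 and 9.04 in G609G/G609G and 9.89, 9.79 and 9.86 in LCS/LCS. The 3 genotypes were clearly apart. Its difference in G609G/G609G was -0.48 (SE 0.05, adjusted p = 6.2e-05), and -0.08 after quantile normalization (adjusted p = 0.203). Psme3, the nuclear cap, had 9.76, 9.74 and 9.78 in wt, 9.26, 9.31 and 9.45 in G609G/G609G and 9.89, 9.84 and 9.90 in LCS/LCS. It was lowest in the progeria arrays and highest in LCS/LCS, with no overlap; its difference from wt was -0.42 in G609G/G609G, and -0.03 after quantile normalization (adjusted p = 0.561). Psme4, a cap linked to the degradation of acetylated histones, had 9.72, 9.74 and 9.74 in wt, 9.44, 9.48 and 9.60 in G609G/G609G and 9.60, 9.56 and 9.57 in LCS/LCS. Its difference from wt in G609G/G609G of -0.23 turned to 0.16 after quantile normalization (adjusted p = 0.0113). Of the pair that are not subunits, Psme3ip1 fell by 0.35 as deposited and Psmc3ip did not pass.

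**Figure D3:**
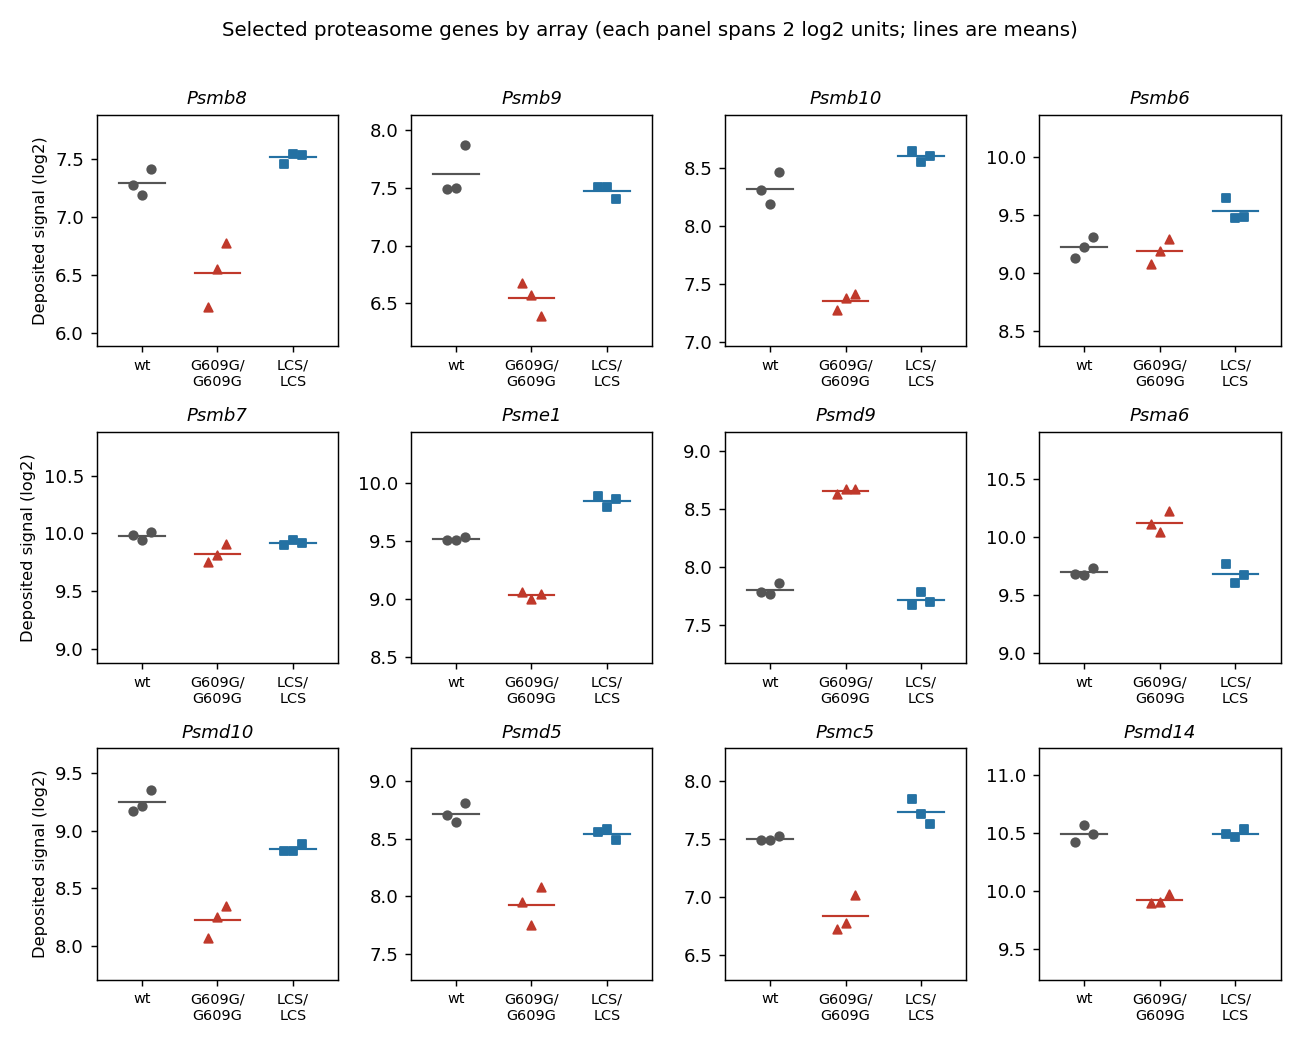
Log2 signal, as deposited, of selected proteasome genes on each array by genotype; points are arrays and horizontal lines are group means. Psmb8, Psmb9 and Psmb10 are lowest in G609G/G609G, Psmd9 and Psma6 are highest there, and Psme1 and Psmb10 are highest in LCS/LCS.

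Groups without overlap give another view of the same arrays. As deposited, all 3 G609G/G609G arrays were below all 3 wt arrays for 19 of the 38 genes and above them for 6, against 56.4% and 12.7% of all genes. After quantile normalization the counts were 5 below and 24 above, against 32.5% and 32.7%.

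Other genes of the pathway are counted here beside the same shares of all genes. Of 5 measured core assembly chaperones and inhibitors, 3 (60%) fell as deposited, against 53.5% of all genes: Psmg1 by 0.72, Pomp, the core maturation factor, by 0.54, and the inhibitor Psmf1 by 0.49. None of these 3 passed after quantile normalization, when the chaperone Psmg2 rose by 0.22 (adjusted p = 0.0354) and none of the 5 fell, against 29.5% of all genes. Pomp had 9.27, 9.13 and 9.38 in wt, 8.73, 8.70 and 8.73 in G609G/G609G and 9.51, 9.27 and 9.26 in LCS/LCS, so the progeria arrays were below all others. Of 10 transcription factors of proteasome genes and their processing enzymes, 5 (50%) fell and 2 (20%) rose as deposited, against 53.5% and 10.5% of all genes. After quantile normalization 2 (20%) fell and 6 (60%) rose, against 29.5% and 28.5%. Nfe2l3, a relative of Nfe2l1, fell by 1.83 (adjusted p = 2.06e-07), and by 1.35 after quantile normalization. Nfe2l2, the oxidative stress factor, fell by 0.63, and by 0.24 after quantile normalization (adjusted p = 0.00224). Nfe2l1 had 9.94, 9.89 and 9.97 in wt, 9.53, 9.51 and 9.53 in G609G/G609G and 10.20, 10.25 and 10.27 in LCS/LCS, with no overlap among genotypes. Its fall of 0.41 as deposited (adjusted p = 0.000142) became -0.03 after quantile normalization (adjusted p = 0.687).

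Among 13 proteins that bind the proteasome or carry substrates to it, 9 (69.2%) fell and 2 (15.4%) rose as deposited, against 53.5% and 10.5% of all genes. After quantile normalization 3 (23.1%) fell and 6 (46.2%) rose, against 29.5% and 28.5%. Zfand5, which binds the proteasome and stimulates it, rose by 0.85 (adjusted p = 1.69e-05), and by 1.27 after quantile normalization. The shuttle factors Ubqln1 and Ubqln2 fell by 0.67 and 0.68, and by 0.29 and 0.27 after quantile normalization. The ubiquitin ligase Ube3c fell by 0.68, and by 0.23 after quantile normalization. Of 7 genes of the p97 segregase and its cofactors, 5 (71.4%) fell as deposited, against 53.5% of all genes, and 1 (14.3%) fell and 4 (57.1%) rose after quantile normalization, against 29.5% and 28.5%. The 1 measured ubiquitin-activating enzyme of its list, Uba6, fell by 0.93, and by 0.44 after quantile normalization.

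All 8 genes of MHC class I antigen processing fell as deposited, against 53.5% of all genes. Of the 8, 5 (62.5%) fell after quantile normalization and 4 (50%) under all 3 scalings, against 29.5% and 25.5% of all genes. Tapbpl, a peptide editor, fell by 1.27 and the chaperones Calr and Pdia3 by 0.94 and 0.78. The peptide transporter genes Tap1 and Tap2, which neighbour Psmb9 and Psmb8 in the MHC region of chromosome 17, fell by 0.43 and 0.49 as deposited and differed by 0.10 and 0.02 after quantile normalization. Of 10 interferon response genes, 9 (90%) fell as deposited, against 53.5% of all genes, and 6 (60%) fell and 1 (10%) rose after quantile normalization, against 29.5% and 28.5%. As deposited, the T cell chemoattractant Cxcl9 fell by 4.03 and the transcription factors Irf8 and Irf7 by 1.21 and 1.16. Cxcl10 of the same list had 5.94, 5.79 and 5.94 in wt and 5.94, 5.76 and 5.77 in G609G/G609G. After quantile normalization the 10 genes differed by -3.70 to 0.31. The 8 macrophage markers summed to 12.10 to 12.23 in wt, 10.999 to 11.17 in G609G/G609G and 12.36 to 12.43 in LCS/LCS, and 6 of 8 (75%) fell in G609G/G609G as deposited. After quantile normalization 6 of these 8 fell and 2 (25%) rose, against 29.5% and 28.5% of all genes. The 9 lymphocyte markers summed to 9.09 to 9.25, 8.47 to 8.50 and 9.32 to 9.37 in the same order. The 6 dendritic cell markers summed to 8.61 to 8.73, 7.74 to 7.87 and 8.98 to 9.11. Such sums follow the brightest genes, and 6 of the 9 and 5 of the 6 were under the array median in wt. As deposited, 5 of the 9 (55.6%) and 2 of the 6 (33.3%) fell in G609G/G609G, against 53.5% of all genes. After quantile normalization 2 (22.2%) and 1 (16.7%) fell and 1 of each list rose, against 29.5% and 28.5%. The part of these cells in the lower Psmb8, Psmb9 and Psmb10 signals was not tested.

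Of 6 ubiquitin ligases of muscle atrophy and FoxO factors, 5 (83.3%) rose as deposited and all 6 after quantile normalization, against 10.5% and 28.5% of all genes. Fbxo32, a ubiquitin ligase of wasting muscle, had 7.77, 7.70 and 7.92 in wt, 11.25, 11.22 and 11.27 in G609G/G609G and 7.81, 7.66 and 7.75 in LCS/LCS. The difference was 3.45 in G609G/G609G (adjusted p = 1.14e-08); in LCS/LCS it was -0.06 and did not pass (adjusted p = 0.695). Foxo1 and Foxo3, transcription factors of the fasting response, rose by 0.67 and 0.46. In G609G/G609G the skeletal muscle markers given above were higher, as were these genes, Psmd9 and Psma6. In LCS/LCS 3 of the 11 markers (27.3%) rose as deposited, against 12.8% of all genes. There Psmd9 and Psma6 differed from wt by -0.09 and -0.01 and did not pass. The part of muscle in these signals was not tested. The other ligase named for this list, Trim63, was not analysed here.

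The comparison of LCS/LCS with wt asks how fat with lamin C alone differed. It shares its wt arrays with the comparison above. Here 4 of 38 genes (10.5%) rose and 1 (2.63%) fell as deposited, while 12.8% of all genes rose and 9.77% fell. The activator Psme1, the constitutive catalytic subunit Psmb6, the immune subunit Psmb10 and the regulatory particle subunit Psmd12 were higher, and the chaperone Psmd10 was lower. All 5 passed under all 3 scalings, against 12% of all genes higher and 8.71% lower. After quantile normalization 6 rose, with Psmd6 and Psmc5 added, and 2 fell, with Psme4 added, against 15.4% and 12.2% of all genes, and after centring 10 rose and 1 fell, against 20.4% and 9.21%. The median difference of the 38 was 0.04 as deposited and -0.01 after quantile normalization, and that of all genes 0.03 and 0.04.

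Psme1 was 9.85 ± 0.05 in LCS/LCS and 9.52 ± 0.01 in wt (SD, n = 3 each). The difference was 0.33 (SE 0.05, adjusted p = 0.00245), with no overlap between the arrays listed above. Psmb6 was higher by 0.31 (SE 0.08, adjusted p = 0.0337), Psmb10 by 0.28 (SE 0.08, adjusted p = 0.05) and Psmd12 by 0.24 (SE 0.06, adjusted p = 0.029). Psmd12 had 9.25, 9.15 and 9.28 in wt, 9.30, 9.32 and 9.41 in G609G/G609G and 9.50, 9.40 and 9.51 in LCS/LCS. All LCS/LCS arrays were above all wt arrays for each of these 4 genes. Psmd10 fell by 0.40 (SE 0.08, adjusted p = 0.0118), also without overlap. Psme1 and Psmd10 kept their calls in all 9 fits with 1 array left out. Psmb10 kept its call in 1 of 9, the fit without wt replicate 3, Psmb6 in 3 and Psmd12 in 5. All 3 lost it without wt replicate 1 or 2 or LCS/LCS replicate 1 or 3, Psmb10 and Psmb6 also without LCS/LCS replicate 2 or G609G/G609G replicate 2, and Psmb10 also without G609G/G609G replicate 1 or 3. The adjusted p in these fits reached 0.16 for Psmb10, 0.119 for Psmb6 and 0.111 for Psmd12. Psmb8 and Psmb9 differed by 0.22 and -0.15 and did not pass (adjusted p = 0.35 and 0.505). As deposited, 12 of the 38 were above wt and 3 below wt without overlap, against 25.6% and 18.1% of all genes, and after quantile normalization 9 were above and 8 below, against 33.1% and 20.6%.

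**Figure D4:**
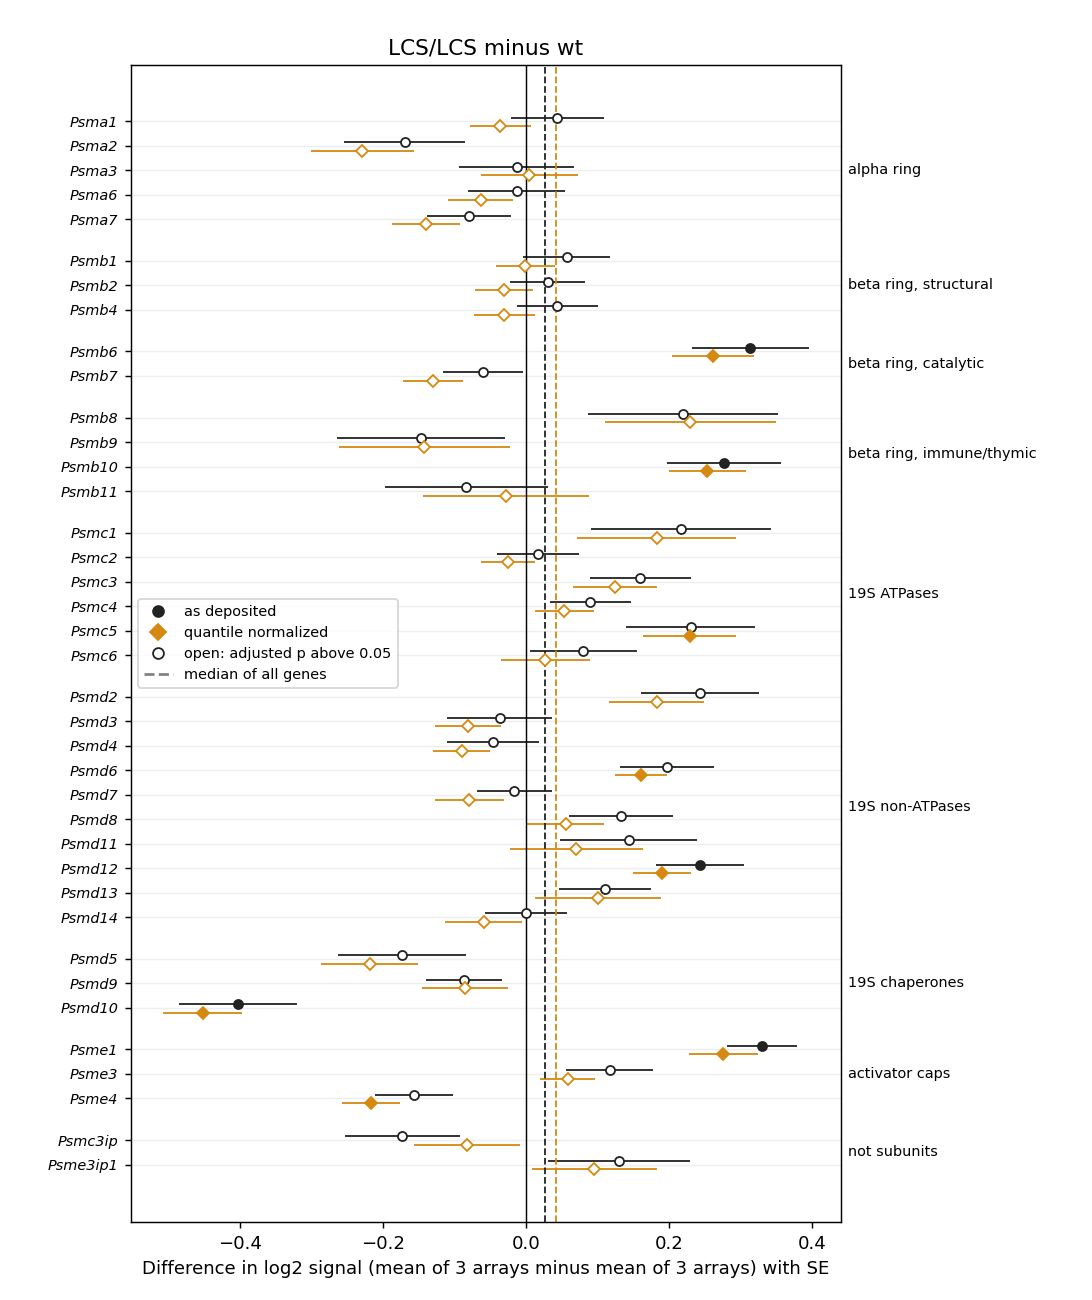
Difference of LCS/LCS from wt for each of the 38 genes, as deposited and after quantile normalization; the x axis is the log2 difference, bars are standard errors, open symbols have an adjusted p above 0.05, and dashed lines mark the median of all genes. Most values lie near 0, Psme1 and Psmb6 lie highest as deposited at 0.33 and 0.31, and Psmd10 lies lowest at -0.40.

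Of the 10 transcription factors and processing enzymes, 3 (30%) rose and none fell as deposited, against 12.8% and 9.77% of all genes. Nfe2l1 rose in LCS/LCS by 0.31 (adjusted p = 0.00317), and by 0.23 after quantile normalization. Its dimerization partners Mafk and Maff rose by 0.76 and 0.20. Psmg1 fell by 0.38 and Psmf1 differed by -0.24 as deposited, which did not pass (adjusted p = 0.0876) but passed after quantile normalization, at -0.30. Of the 13 bound proteins and shuttles, Zfand2a, Ubqln1 and Ubqln2 (23.1%, against 12.8% of all genes) rose by 0.21 to 0.24 as deposited, and Ubqln2 did not pass after quantile normalization (adjusted p = 0.0922). Of the 8 MHC class I genes, Tap2 (12.5%, against 12.8% of all genes) rose by 0.34. Of the 10 interferon response genes, Irf9 and Cxcl9 (20%, against 9.77% of all genes) fell by 0.38 and 0.84. Of the 8 macrophage markers, 4 (50%) were higher in LCS/LCS, against 12.8% of all genes. So were 5 of 7 endothelial markers (71.4%) and 5 of the 10 white adipocyte markers (50%). None of these 3 lists held a lower gene.

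Set directly against LCS/LCS, the G609G/G609G arrays had lower signals of the immune subunits Psmb8, Psmb9 and Psmb10 and of the cap subunit Psme1 under all 3 scalings. As deposited, 17 of 38 genes (44.7%) were lower and 2 (5.26%) higher, while 51.1% of all genes were lower and 11.3% higher. After quantile normalization 5 (13.2%) were lower and 19 higher, against 29.5% and 27.8% of all genes, and after centring 9 were lower and 21 higher, against 30.6% and 41.5%. Psmb10, Psmb8, Psmb9, Psmc5 and Psme1 were lower and Psma6 and Psmd9 higher under all 3 scalings, against 26.2% and 10.9% of all genes. The median difference of the 38 was -0.155 as deposited and 0.17 after quantile normalization, and that of all genes -0.26 and 0. Without overlap, 20 of the 38 were below LCS/LCS and 3 above as deposited, against 55.1% and 14.5% of all genes. After quantile normalization 8 were below and 20 above, against 33.9% and 32.5%. These arrays also enter the comparisons with wt, so the results are not separate evidence.

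Psmb10 gave a difference of -1.25 (SE 0.08, adjusted p = 3.94e-06), and -0.71 after quantile normalization. Psmb8 gave -1.0 (SE 0.13, adjusted p = 0.000288) and -0.51, and Psmb9 gave -0.93 (SE 0.12, adjusted p = 0.00022) and -0.41. All 3 immune subunits thus differed between the mutants on both scales. Psmc5 gave -0.89 and -0.37, and Psme1 -0.81 and -0.36. Of the other caps, Psme3 was lower by 0.54 as deposited and by 0.16 after centring (adjusted p = 0.0197). It did not pass after quantile normalization (-0.09, adjusted p = 0.0979). Psme4 differed by -0.07 as deposited (adjusted p = 0.324) and was higher by 0.38 after quantile normalization (adjusted p = 0.000115). Psmd9 was higher by 0.94 (SE 0.05, adjusted p = 1.90e-06) and Psma6 by 0.44 (SE 0.07, adjusted p = 0.000644). Psmd10, Psmd5 and Psmd14 were lower as deposited, with differences of -0.62 to -0.57, and did not pass after quantile normalization, at adjusted p of 0.0806 to 0.245. The lower calls of Psmc4, Psmd11 and Psmd2 were kept in 3, 4 and 7 of 9 fits with 1 array left out. Psmc4 lost its call without wt replicate 1, G609G/G609G replicate 1 or 2 or any LCS/LCS array, and Psmd11 without wt or G609G/G609G replicate 1 or 2 or LCS/LCS replicate 2. Psmd2 lost it without G609G/G609G or LCS/LCS replicate 1. The adjusted p then reached 0.0916, 0.113 and 0.0605.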

How the data were processed

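Total RNA of 9 arrays was analysed; the series text names 10 samples. The authors deposited log2 signals per probe set, a scale inferred from the range of the values. Build mm9 is named per the submitters' processing notes. The steps of background correction, summary and scaling were not given in the sources used here. Depth has no meaning for these arrays, and their number limits the precision.

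Groups and replicate numbers came from the sample titles. Of 23332 probe sets, 14996 had 1 symbol in the platform annotation, 1019 several and 7317 none; Entrez numbers of 14941 matched RefSeq (GRCm38.p6), and 0 symbols needed updating. limma 3.58.1 in R 4.3.3 was fitted to all probe sets and all 9 arrays with genotype means as coefficients, moderated variances (eBayes) and two-sided tests, and p-values were adjusted by Benjamini-Hochberg over all 23332 probe sets. The fit was tested on simulated data. The 3 comparisons were repeated after quantile normalization and after median centring. Further alternatives were the methods' t-test, a fold of at least 1.5, an adjusted p of 0.01, array weights, other moderation, dim probe sets left out, a replicate block, 2 genotypes per fit, probe set means, and each array left out.

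All 38 genes could be named. Per comparison, every array's value is given for up to 5 called genes in each direction, the largest ones whose groups did not overlap, and for a list of subunits; of other lists, counts and up to 4 genes of smallest p, with a few fixed names. Cxcl9, Cxcl10, Irf7, Irf8, Tap1 and the neighbours of proteasome genes were chosen after their values were seen where they lie outside this rule. The genes and lists were chosen with earlier results of these data known. Promoter sequences are from RefSeq.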

Additional observations from a re-analysis of the deposited data

Results flagged for a closer look

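A probe set that the annotation lists for 3 symbols, Psma4 among them, was outside the comparisons because its target cannot be named. Its signal was 8.50, 8.36 and 8.48 in wt, 9.51, 9.37 and 9.58 in G609G/G609G and 8.85, 8.88 and 8.98 in LCS/LCS, above the control arrays in both mutants. The difference from wt was 1.04 in G609G/G609G (limma adjusted p = 8.03e-06), and 1.47 after quantile normalization. It was 0.46 in LCS/LCS (limma adjusted p = 0.00366), and 0.43 after quantile normalization. Which of the 3 genes gave this signal was not tested.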

How the results depend on the processing

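The scaling of the arrays decided most directions in the comparisons of G609G/G609G. Over all probe sets, the share of calls that were higher went from 17.8% as deposited to 51% after quantile normalization and 65.8% after centring against wt, from 19.8% to 50.4% and 61.7% against LCS/LCS, and from 54.8% to 53.8% and 67.7% for LCS/LCS against wt. The median difference of the proteasome genes from wt turned from -0.15 to 0.24 (quantile) and 0.27 (centring), and against LCS/LCS from -0.155 to 0.17 and 0.22. Genes called higher and lower became 23 and 5 (quantile) or 25 and 7 (centring) against wt, and 19 and 5 or 21 and 9 against LCS/LCS; for LCS/LCS against wt centring gave 10 higher and quantile normalization 2 lower. Single genes that turned and were called on at least one of the 2 scales, with log2 differences, were, for G609G/G609G against wt after quantile normalization, Psma2 0.32, Psma7 0.24, Psmb1 0.29, Psmb2 0.14, Psmb6 0.37, Psmb7 0.24, Psmc1 0.35, Psmc2 0.33, Psmc3 0.17, Psmc4 0.34, Psmd13 0.078, Psmd2 0.32, Psmd3 0.26, Psmd4 0.27, Psme3ip1 0.13 and Psme4 0.16. After centring they were Psma2 0.36, Psma3 0.34, Psma7 0.28, Psmb1 0.33, Psmb2 0.20, Psmb6 0.39, Psmb7 0.27, Psmc1 0.34, Psmc2 0.32, Psmc3 0.14, Psmc3ip 0.24, Psmc4 0.34, Psmd11 0.28, Psmd2 0.37, Psmd3 0.23, Psmd4 0.25, Psme3 0.005, Psme3ip1 0.0783 and Psme4 0.20. Against LCS/LCS they were Psma1 0.42, Psma7 0.38, Psmb1 0.29, Psmb2 0.17, Psmb6 0.11, Psmb7 0.37, Psmc2 0.35, Psmc3 0.0439, Psmc4 0.29, Psmd11 0.15, Psmd12 0.33, Psmd2 0.13, Psmd3 0.34, Psmd4 0.36, Psmd8 0.36, Psme3ip1 0.0319 and Psme4 0.38 after quantile normalization, and Psma1 0.35, Psma3 0.30, Psma7 0.31, Psmb1 0.22, Psmb2 0.12, Psmb6 0.0267, Psmb7 0.28, Psmc2 0.25, Psmc3ip 0.37, Psmc4 0.20, Psmd11 0.09, Psmd12 0.25, Psmd2 0.0767, Psmd3 0.22, Psmd4 0.25, Psmd8 0.28 and Psme4 0.30 after centring. Genes called on neither scale also turned: Psmd11 (0.22) and Psmc3ip (0.028) after quantile normalization and Psmb11 (0.19) after centring against wt, and Psmc1 (0.17) and Psmc3ip (0.11), or Psmb11 (0.22) and Psmc1 (0.07), against LCS/LCS. In LCS/LCS against wt, 6 genes turned after quantile normalization and 5 after centring, none of them called on either scale and none beyond 0.057 in size.

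The methods' t-test with its fold minimum called 6650, 1487 and 6933 probe sets for G609G/G609G against wt, LCS/LCS against wt and G609G/G609G against LCS/LCS, and 6177, 1233 and 6511 after Benjamini-Hochberg adjustment, where limma called 12307, 4005 and 12147. Of the proteasome genes it called 6 lower and 1 higher, 0 and 0, and 7 and 1, with and without that adjustment, and limma with a fold of at least 1.5 called the same numbers, and 6934, 1385 and 7184 probe sets. For LCS/LCS against wt, array weights gave 6511 probe sets, 8 higher and 2 lower genes, and an adjusted p of 0.01 gave 2295, 1 and 0. Trended, robust moderation and a fit of these 2 genotypes alone each gave 2 lower genes. Leaving out each array in turn gave 2669 to 4805 probe sets, 1 to 5 higher and 1 to 2 lower genes for LCS/LCS against wt; for G609G/G609G 14 to 17 lower and 2 to 3 higher against wt, and 14 to 22 lower and 2 higher against LCS/LCS. Whether the replicate numbers pair the arrays was not settled. Deviations of arrays with one number correlated at 0.08 to 0.23 between G609G/G609G and wt, and at -0.07 to 0.08 in the other comparisons. For 2 of 9 arrays the best match in both other genotypes had their own number. With so few arrays these values cannot exclude pairing. With the replicate number as a block, higher genes in LCS/LCS went from 4 to 2, with Psmb6 and Psmb10 lost (adjusted p = 0.0619 and 0.0594), and Psmb7 was lost in G609G/G609G against wt (adjusted p = 0.056). Leaving out Psmc3ip and Psme3ip1, an alternative chosen after seeing the data, left 14 lower and 3 higher against wt. The 3 arrays per genotype limit the precision. No detection call was used, so the signals of Psma3, Psmb11 and Psmc3ip cannot be set apart from background.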

Other observations

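Other probe sets shared by proteasome genes gave mixed values. The probe set listed for Psmd1, the largest scaffold subunit of the regulatory particle, and a second gene differed between G609G/G609G and wt by -0.52 as deposited (limma adjusted p = 9.72e-05) and by -0.04 after quantile normalization (adjusted p = 0.673). The 2 probe sets listed for both Psme2 and Psme2b, partners of Psme1 in the interferon-inducible cap, disagreed. One differed by -1.26 as deposited (limma adjusted p = 0.00735) and by -0.81 after quantile normalization, which did not pass (adjusted p = 0.0749). The other differed by -0.02 (adjusted p = 0.958) and by 0.46 after quantile normalization (adjusted p = 0.152).

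Some genes that lie beside Psmd9, Psma6 and Psmd10 in RefSeq, chosen after their values were seen, had these differences of G609G/G609G from wt. Of the genes flanking Psmd9, Hpd, 45467 bases away, differed by 3.0 as deposited and 3.42 after quantile normalization. Setd1b beyond it differed by -0.41 and 0.13 (limma adjusted p = 0.144 after quantile normalization). Wdr66, which lies nearer to Psmd9 than Hpd does, was not analysed here. Bcl7a, beyond Wdr66, differed by -0.19 as deposited, which did not pass (limma adjusted p = 0.066), and by 0.34 after quantile normalization (adjusted p = 0.0129). Nfkbia, the NF-kappaB inhibitor gene next to Psma6 at a distance of 70950 bases, differed by 1.23 and 1.62. Prorp on its other side differed by -0.58 as deposited and by -0.13 after quantile normalization, which did not pass (adjusted p = 0.145). Vsig1, next to Psmd10, differed by -2.04 and -1.76. Atg4a, which overlaps Psmd10 there, differed as deposited by -0.78 in G609G/G609G and -0.51 in LCS/LCS, where Psmd10 differed by -1.02 and -0.40. How probes were divided between overlapping genes was not given in the sources used here, so the signals of Psmd10 and Atg4a are uncertain where they overlap.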
